A study of Mus musculus with 6 samples.

Results

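The genes described here encode the core histones H2A, H2B, H3 and H4 and the linker histone H1. They are the 56 of 14455 genes with RefSeq mRNA rows (accessions starting NM_) whose names begin with Hist1h to Hist4h, H2af, H2bf, H3f3 or H1f followed by a digit, n or x. By name, 41 are replication-dependent, 9 are replacement variants and 6 are testis variants. Hist1h2ba, which the name rule would place among the testis variants, had no NM_ row in any sample, so that class leaves it out. RNA was sequenced from mature sperm (4 samples, sperm 1 to sperm 4) and from testes (2 samples) of C57BL/6 mice (C57BL/6J in the study's methods). The sample labels give an age of 3 to 5 months, and the methods give a younger range. By the methods, the testes came from the mice that gave the sperm. Sperm were taken from the caudal epididymis and vas deferens, pooled over mice, and treated to lyse somatic cells. The libraries were strand-specific and depleted of rRNA, so RNA without a poly(A) tail was not selected against. The study set sperm 1 aside after correlating the samples. Group values here are therefore mean ± SD over sperm 2, 3 and 4 (n = 3) and over both testes samples (n = 2), with sperm 1 given beside them.

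Nucleosomes are built from pairs of each core histone, and H1 binds the linker DNA between them. Replication-dependent histone mRNAs are made mainly in S phase from clustered genes and end in a stem-loop in place of a poly(A) tail, whereas replacement variants are made throughout the cell cycle from polyadenylated mRNA. Male germ cells also make testis variants of histones, and in late spermatids most histones are exchanged for transition proteins and then protamines. Mature sperm do not divide and are held to be transcriptionally silent.

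Estimated counts on NM_ genes totalled 33511 to 100027 in the sperm samples and 322625 and 314273 in testes, which was 9.14 to 12.1% of the counts of all deposited rows. Levels are given as CPM, the estimated counts per 1000000 NM_ counts of the sample. 3 counts, taken here as the floor, were worth 30.0 to 89.5 CPM in a sperm sample, and 9.30 and 9.55 CPM in testes. All 5 spermatocyte markers were at 0 in all 4 sperm samples and summed to 96.1 and 98.6 CPM in testes. Of 5 measured markers of spermatogonia and dividing cells, 4 were at 0 in every sperm sample, and the list summed to 0 to 40.0 CPM in sperm against 316 and 270 in testes. The 5 Leydig cell markers summed to 0, 170, 1194 and 110 CPM in sperm 1 to 4 and to 580 and 535 in testes. The steroidogenic gene Star supplied the whole of that sum in sperm 3, with 40 counts, and the other 4 Leydig markers were at 0 there. Sertoli cell markers reached at most 40.0 CPM in sperm and 62.0 in testes, leukocyte markers 20.0 and 34.1, epididymal markers 92.0 and 38.2, and the single measured erythrocyte marker 0 and 3.18. The 9 markers of late spermatids and sperm summed to 1722 to 4237 CPM in sperm and to 3350 and 3027 in testes. This sum joins unlike genes. Tssk6 alone supplied 2357 CPM of it in sperm 3, against 74.4 and 92.3 in testes. In the test described below, Tssk6 was called higher and Prm1 and Tnp1 lower, beside 3.54% and 3.65% of all tested genes. The median log2 fold change of the 9 markers was -1.90.

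Histone mRNA as a whole took a similar share of NM_ counts in both groups. It came to 1333 CPM in sperm 1, 1911 in sperm 2, 1641 in sperm 3 and 1737 in sperm 4, and to 1787 and 1567 in testes. The group values were 1763 ± 137 and 1677 ± 155, a ratio of 1.05, and the samples of the groups overlapped. Scaled to all deposited rows the ratio was 0.883, so no direction is read from it. The classes within this sum differed more. Replication-dependent genes stood at 1073 ± 297 in sperm and 928 ± 44.7 in testes, a gap within the sperm spread. Replacement variants stood at 633 ± 201 and 485 ± 60.0. The testis variants stood at 56.5 ± 49.2 against 265 ± 50.6 (ratio 0.213). In bulk RNA, fewer cells of a type and less RNA per cell cannot be told apart. The sperm sums rest on 55 to 191 histone counts a sample, and those of testes on 577 and 493.

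**Figure D1:**
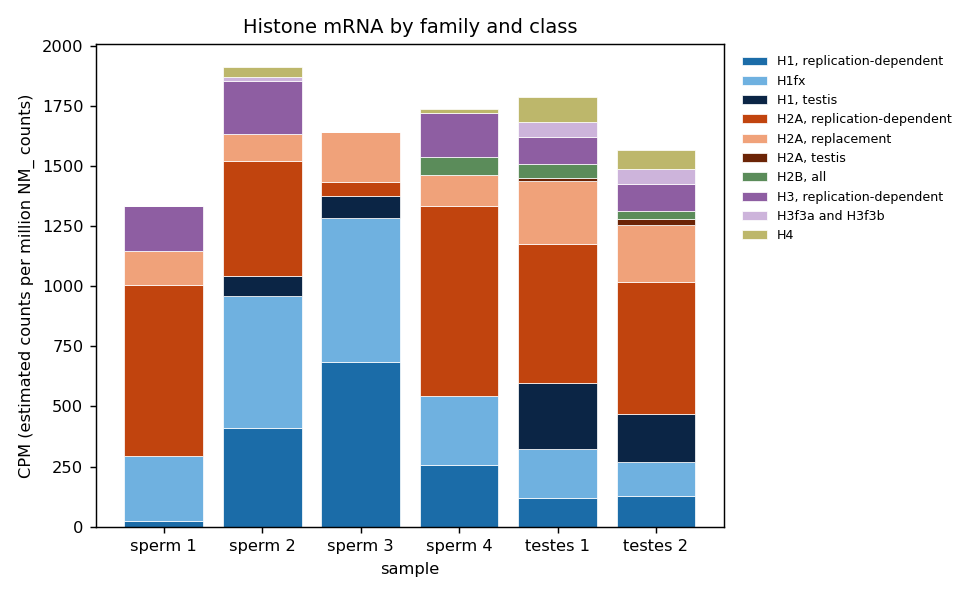
Stacked bars show CPM (vertical axis, linear from 0) in each of the 6 samples, split by histone family and class. Bar heights lie between 1333 and 1911, while the linker histone segments (blues) and the testis H1 segment (dark blue) change between samples. The replication-dependent H2A segment changes too, from 59.7 CPM in sperm 3 to 790 in sperm 4.

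Of the 56 genes, 21 had a summed count of 10 or more over the 5 compared samples and could be tested with edgeR's quasi-likelihood test. No histone gene passed an adjusted p of 0.05 with a fold above 2, against 3.54% of all 6828 tested genes called higher in sperm and 3.65% called lower. At an unadjusted p under 0.05 there were 2 higher in sperm, Hist1h1e and Hist2h3c2, and 3 lower, H3f3b, Hist1h1a and Hist2h2ab. The same cutoff took 9.55% of all tested genes higher and 30.0% lower. DESeq2 called Hist2h2ab lower and no histone gene higher, beside 17.5% and 3.84% of the genes it tested. limma on log2(FPKM + 1), which took 3.81% of all tested genes higher and 20.8% lower, called Hist1h1e higher and H3f3b, Hist1h1a, Hist1h4b, Hist2h2ab and Hist2h2ac lower. Without sperm 3, edgeR called Hist1h1e, Hist2h2aa1 and Hist2h3c2 higher and Hist2h2ab lower, beside 9.01% of all tested genes called higher and 10.4% called lower. With sperm 1 included, edgeR called H3f3b and Hist2h2ab lower (17.5% of all tested genes) and none higher (3.83%), and a replicate block then left no call, beside 2.35% higher and 1.48% lower. A filter on FPKM in place of counts gave H3f3b, Hist1h1a and Hist2h2ab lower (19.5%) and none higher (8.53%). The median log2 fold change of the tested histone genes was -1.61, and that of all tested genes was -1.19.

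**Figure D2:**
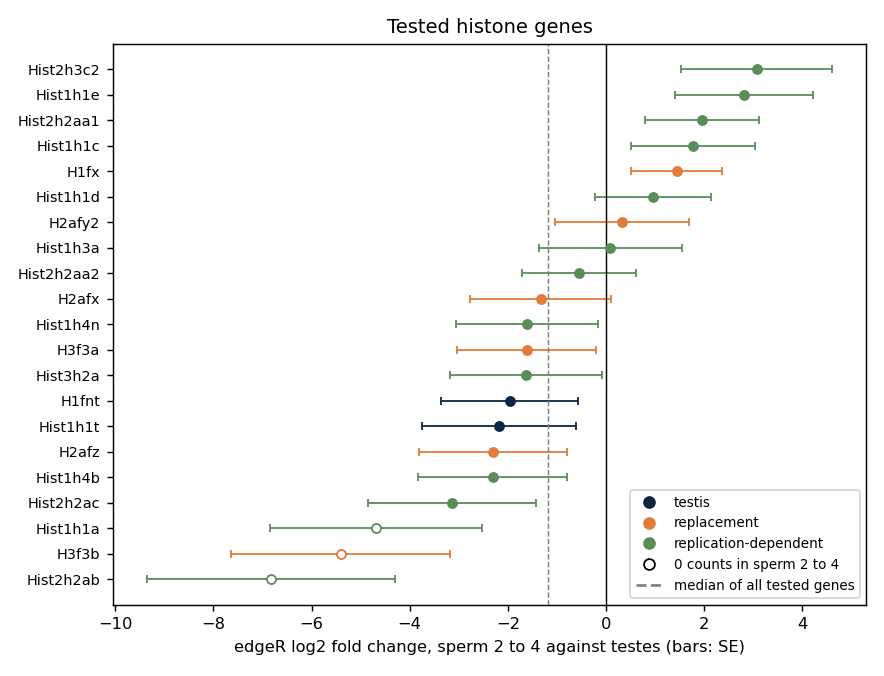
Points are edgeR log2 fold changes of the 21 tested histone genes, sperm 2 to 4 against testes (horizontal axis), with bars of 1 SE, coloured by class. Open points had 0 counts in sperm 2 to 4 and their fitted values are not bounds. H1fx, Hist1h1c, Hist1h1d and Hist1h1e lie to the right of 0, as do Hist2h3c2, Hist2h2aa1, H2afy2 and Hist1h3a. Both testis linker genes lie near -2, left of the dashed median of all tested genes at -1.19.

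Linker histone genes were among the highest in sperm. 3 genes had every sperm 2 to 4 value above both testes values, and all 3 encode linker histones: H1fx, Hist1h1c and Hist1h1e. Over all tested genes 7.72% had values placed in this way. Upstream windows of 250 bases that end at the annotated start site are shown for these 3 genes and, for comparison, for the testis linker genes Hist1h1t and H1fnt. They are RefSeq sequences of build GRCm38.p6 on the gene's strand, 5′ to 3′. Capitals mark matches on either strand to CCAAT (a promoter element of many histone genes), TATAAA (the TATA box), AAACACA (the AC box described for H1 promoters) or ATTTGCAT (the octamer of H2B promoters).
H1fx, chr6:87981483-87981732, - strand: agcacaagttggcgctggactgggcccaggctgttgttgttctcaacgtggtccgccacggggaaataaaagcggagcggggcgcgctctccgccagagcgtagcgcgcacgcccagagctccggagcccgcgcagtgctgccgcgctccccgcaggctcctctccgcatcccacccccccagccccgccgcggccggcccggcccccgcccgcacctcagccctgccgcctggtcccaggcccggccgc
Hist1h1c, chr13:23738557-23738806, + strand: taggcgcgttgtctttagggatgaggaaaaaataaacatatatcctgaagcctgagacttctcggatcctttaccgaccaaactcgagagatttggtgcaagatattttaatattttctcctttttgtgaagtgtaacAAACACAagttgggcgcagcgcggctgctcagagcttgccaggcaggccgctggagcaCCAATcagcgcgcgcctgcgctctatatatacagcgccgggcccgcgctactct
Hist1h1e, chr13:23622559-23622808, - strand: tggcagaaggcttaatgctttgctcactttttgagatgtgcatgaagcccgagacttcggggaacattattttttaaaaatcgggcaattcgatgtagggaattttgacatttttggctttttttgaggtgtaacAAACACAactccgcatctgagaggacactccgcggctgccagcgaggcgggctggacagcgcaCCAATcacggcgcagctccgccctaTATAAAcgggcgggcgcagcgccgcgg
Hist1h1t, chr13:23695561-23695810, + strand: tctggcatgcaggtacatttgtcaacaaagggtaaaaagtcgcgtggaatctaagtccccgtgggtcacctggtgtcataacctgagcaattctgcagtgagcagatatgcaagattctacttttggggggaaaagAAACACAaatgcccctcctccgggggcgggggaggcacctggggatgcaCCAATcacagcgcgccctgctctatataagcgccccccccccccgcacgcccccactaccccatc
H1fnt, chr15:98257308-98257557, - strand: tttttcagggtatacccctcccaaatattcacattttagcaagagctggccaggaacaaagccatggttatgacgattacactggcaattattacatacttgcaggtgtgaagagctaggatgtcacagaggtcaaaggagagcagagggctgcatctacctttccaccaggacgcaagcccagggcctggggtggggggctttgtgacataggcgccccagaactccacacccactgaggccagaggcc

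Hist1h1c, Hist1h1e and Hist1h1t shared 1 layout. Counting back from the start site, their AC box began at -112, -115 and -114 and their CCAAT at -54, -52 and -65. Hist1h1e alone of the 3 held TATAAA, at -27. The windows of H1fx and H1fnt held none of the 4 motifs. Hist1h1t held the same motifs as Hist1h1c, and its values in sperm 2 to 4 lay below those in testes. Among all 32851 RefSeq promoter windows of this length, 33.8% held CCAAT, 12.4% TATAAA, 6.25% AAACACA and 1.60% the octamer. Windows were at hand for 52 of the 56 histone genes. Of 38 replication-dependent windows, 30 held CCAAT, 16 TATAAA, 4 AAACACA and 7 the octamer. Among these, the 4 linker windows include those of Hist1h1a and Hist1h1d, and 4 held CCAAT, 3 TATAAA and 3 AAACACA. The motifs were thus not particular to Hist1h1c and Hist1h1e. A match says only that these letters are present.

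H1fx encodes H1.10, a replacement linker histone made outside S phase, from a gene on chromosome 6 (87980421 to 87981482, GRCm38.p6). Its level was 272 CPM in sperm 1, 551 in sperm 2, 597 in sperm 3 and 284 in sperm 4, and 205 and 142 in testes. Every sperm sample, sperm 1 included, was above both testes samples. The log2 fold change was 1.44 (SE 0.93 and an adjusted p of 0.244 by edgeR), so the difference was not larger than the replicate error under this test.

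Hist1h1c encodes H1.2, one of the main somatic linker histones, from the histone cluster on chromosome 13 (23738807 to 23739531). It stood at 23.6, 110, 448 and 147 CPM in sperm 1 to 4, and at 62.0 and 69.3 in testes. Sperm 1 was below testes and the other sperm samples were above, with sperm 3 the highest. The log2 fold change was 1.78 (SE 1.26 and an adjusted p of 0.298 by edgeR). Sperm 3, which led this gene and H1fx, was also the sample with 1194 CPM of Star. It held 239 CPM of Hist1h1e as well. The other 4 Leydig cell markers were at 0 in sperm 3. The part of Star's source in the values of H1fx, Hist1h1c and Hist1h1e was not tested.

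Hist1h1e, which encodes the abundant somatic linker histone H1.4, lies in the same cluster (23621777 to 23622558). It was at 0 in sperm 1 and at 260, 239 and 110 CPM in sperm 2, 3 and 4, against 31.0 and 25.5 in testes. At the testes level 5.31 counts would have been expected over sperm 2 to 4, where 40 were found. The log2 fold change was 2.82 (SE 1.41 and an adjusted p of 0.119 by edgeR). The adjusted p was 0.0212 by edgeR without sperm 3 and 0.0233 with limma. The other alternatives did not call the gene. Its edgeR adjusted p was 0.323 with TMM, 0.291 with all 4 sperm samples and 0.174 without sperm 2, and DESeq2 gave 0.187.

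H1fx, Hist1h1c and Hist1h1e together made up 48.2%, 78.2% and 31.2% of all histone counts in sperm 2, 3 and 4, and 16.7% and 15.1% in testes. In sperm 1 they made up 22.1%, with a 95% Wilson interval of 13.8 to 35.2% that reached down past the testes values. Intervals here cover counting error only. The group shares were 52.5 ± 23.8% and 15.9 ± 1.07%. These 3 genes were picked for their values, so the sums are a description. TMM and DESeq2 scaling shifted the median log2 fold change of all tested genes by -0.65 and -1.03. Those of the 3 genes then lay between 0.39 and 2.10, and none was called. H1fx, for 1, gave 0.68 (SE 1.15) and 0.39 (SE 0.83). Since the genes were picked in the same samples, their kept sign adds no support. With a replicate block over all 4 sperm samples Hist1h1c gave -0.13.

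The other linker genes did not share this order. Hist1h1d (H1.3) was listed only in sperm 2, at 40.0 CPM, and in 1 testes sample, at 19.8. Hist1h1a (H1.1, known for its high level in germ cells) was at 0 in all 4 sperm samples and at 24.8 and 12.7 CPM in testes. It lay at least 1.18-fold lower in sperm, taking 3 counts over sperm 2 to 4 as the floor (16.0 CPM). Its edgeR adjusted p was above 0.05.

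Testis variants had lower values in sperm than in testes, and neither of the 2 that could be tested passed. Hist1h1t encodes H1t, the linker histone of spermatocytes and early spermatids. It had 3 counts in sperm 2 (30.0 CPM) and none in the other sperm samples, against 83.7 and 44.5 CPM in testes. H1fnt encodes the linker-like protein H1T2 of elongating spermatids. It was at 0, 49.99, 89.5 and 0 CPM in sperm 1 to 4, and at 192 and 156 in testes. For both genes every sperm value was below both testes values, as held in sperm 2 to 4 for 45.0% of all tested genes. The log2 fold changes were -2.18 (SE 1.56) for Hist1h1t and -1.96 (SE 1.39) for H1fnt, and edgeR's adjusted p-values were 0.301 and 0.297.

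The remaining 4 testis variants were at 0 in every sperm sample. Of these, H2bfm stood at 12.4 and 6.36 CPM in testes, and the gene named H2afb1 in the files at 9.30 and 12.7. RefSeq lists the accession of that H2afb1 row as H2al2a. H2afb3 and Hist1h2aa had at most 2 counts in a testes sample. All 4 lay below what 3 counts over sperm 2 to 4 would show, so a difference was not detectable at this depth. For the class as a whole, 11.2 and 14.4 counts would have been expected in sperm 1 and sperm 4 at the testes level. None was found in either. The floor of 3 counts was worth 70.8 and 55.2 CPM in these 2 samples, and the Wilson intervals for 0 counts reached up to 90.6 and 70.7. The 5 spermatocyte markers were also at 0 in all sperm samples, and their part in these values was not tested.

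**Figure D3:**
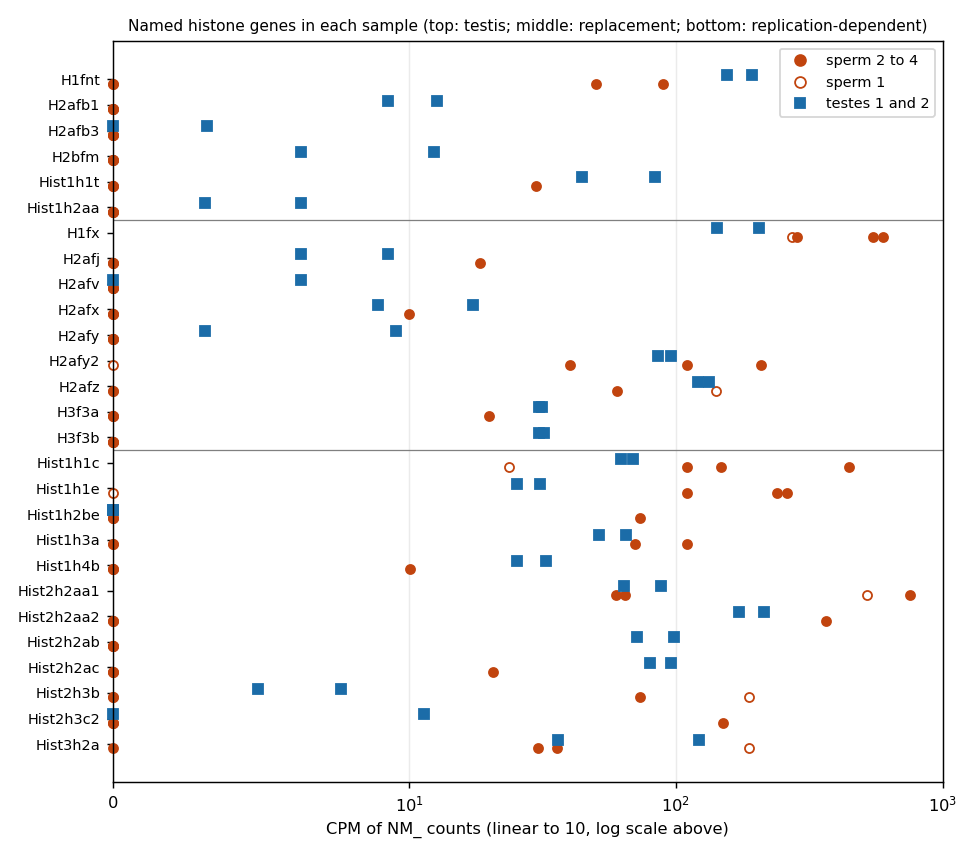
Each row is a histone gene, and each point is 1 sample's CPM (horizontal axis, linear to 10 and logarithmic above). Circles are sperm (open circle, sperm 1) and squares are testes. H1fx, Hist1h1c and Hist1h1e are the rows in which every filled circle lies to the right of both squares.

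Replacement variants differed among themselves. Without H1fx the class ratio of sperm to testes was 0.501, against 1.31 with it. H3.3, the replacement H3 that marks active and newly assembled chromatin, is encoded by H3f3a and H3f3b. H3f3a had 2 counts in sperm 2 (20.0 CPM) and none in other sperm samples, against 31.4 and 30.8 CPM in testes. H3f3b was at 0 in all 4 sperm samples and at 32.0 and 30.7 in testes, at least 1.96-fold lower in sperm (edgeR adjusted p = 0.0746). The pair summed to 6.66 ± 11.5 CPM in sperm and 62.4 ± 1.28 in testes, and the sperm value rests on those 2 counts. The coding sequences of the pair are close and reads may have been shared between them, so the split between the genes is uncertain.

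H2afz encodes H2A.Z, the H2A variant of promoter nucleosomes. It was at 142, 60.0, 0 and 0 CPM in sperm 1 to 4 and at 133 and 121 in testes, where sperm 1 alone came above testes. The log2 fold change was -2.31 (SE 1.5 and an adjusted p of 0.252 by edgeR). H2afy2, which encodes macroH2A2, a variant with a large C-terminal domain, was at 0, 40.0, 209 and 110 CPM in sperm and 96.1 and 85.9 in testes. Its groups overlapped, with a log2 fold change of 0.33 (SE 1.36) that turned negative under TMM and DESeq2 scaling. H2afx (H2A.X, phosphorylated at DNA breaks) had 1 sperm count, in sperm 2, and stood at 17.3 and 8.94 CPM in testes. H2afj had 1 sperm count, in sperm 4. H2afv and H2afy had none in sperm, and these 3 genes stayed at or below 9.55 CPM in testes.

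The replication-dependent H2A genes of the chromosome 3 cluster differed from each other in sperm. Upstream windows of 2 of these genes, Hist2h2aa1 and Hist2h2ab, are shown with the same marks, since the first had the highest value of any histone gene in a sperm sample (755 CPM) and the second was at 0 in all of them.
Hist2h2aa1, chr3:96245247-96245496, + strand: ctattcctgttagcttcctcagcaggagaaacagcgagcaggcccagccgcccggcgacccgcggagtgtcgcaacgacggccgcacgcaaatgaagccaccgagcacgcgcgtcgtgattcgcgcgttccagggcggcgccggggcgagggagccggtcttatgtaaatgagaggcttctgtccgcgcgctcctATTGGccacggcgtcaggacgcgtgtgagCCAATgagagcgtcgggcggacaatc
Hist2h2ab, chr3:96219635-96219884, + strand: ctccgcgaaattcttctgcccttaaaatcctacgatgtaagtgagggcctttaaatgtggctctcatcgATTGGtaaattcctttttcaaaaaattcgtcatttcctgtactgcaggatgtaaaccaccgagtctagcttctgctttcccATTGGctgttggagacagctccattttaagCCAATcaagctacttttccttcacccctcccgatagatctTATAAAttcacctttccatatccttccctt

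Both windows held more than 1 CCAAT match, and Hist2h2ab also held TATAAA at -30. Hist2h2aa1 and Hist2h2aa2 encode near-identical H2A from gene copies of opposite orientation. Their windows, lined up with an offset of 40 bases, were identical at 199 of 210 positions. Hist2h2aa1 was at 519, 64.5, 59.7 and 755 CPM in sperm 1 to 4 and at 88.2 and 63.8 in testes. Hist2h2aa2 was at 365 CPM in sperm 2, at 0 in the other sperm samples, and at 173 and 215 in testes. In sperm 1, 3 and 4 all counts of the pair were thus assigned to one copy, and in sperm 2 most were assigned to the other. Because the copies can share reads, their sum is the safer measure. It was 519, 429, 59.7 and 755 CPM in sperm 1 to 4 and 261 and 278 in testes, so sperm 3 lay below testes and the other sperm samples above. Neither copy passed the test, at log2 fold changes of 1.95 (SE 1.16 and an adjusted p of 0.203 by edgeR) and -0.55 (SE 1.16 and an adjusted p of 0.756 by edgeR). Without sperm 3 the value for Hist2h2aa1 was 2.36 and it was called higher, and without sperm 4 it was -0.33.

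Hist2h2ab and Hist2h2ac encode further H2A proteins from neighbouring genes in that cluster. Hist2h2ab was at 0 in all 4 sperm samples and at 71.3 and 98.6 CPM in testes. At the testes level 15.9 counts would have been expected over sperm 2 to 4. This is at least 5.31-fold lower in sperm, with an edgeR adjusted p of 0.0699, of 0.0323 with all 4 sperm samples and of 0.0230 without sperm 3. The edgeR adjusted p was 0.0544 with TMM, 0.166 without sperm 2 and 0.142 without sperm 4. Hist2h2ac was at 20.7 CPM in sperm 2 and at 0 in the other sperm samples, against 96.2 and 80.2 in testes. Its log2 fold change was -3.14 (SE 1.71 and an adjusted p of 0.157 by edgeR). Hist3h2a, a lone H2A gene on chromosome 11, was at 189, 30.5, 0 and 35.9 CPM in sperm and at 122 and 36.1 in testes, with overlapping groups once sperm 1 was counted.

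H3 genes were uneven among the sperm samples. Hist1h3a, an H3.1 gene, was at 0, 70.0, 0 and 110 CPM in sperm and 51.6 and 65.3 in testes (log2 fold change 0.08, SE 1.46). Hist2h3c2 had 15 counts in sperm 2 (150.0 CPM) and none in other sperm samples, against 0 and 11.4 CPM in testes, so its fitted fold change of 3.07 (SE 1.54 and an adjusted p of 0.120 by edgeR) rests on 1 sample. Hist2h3b was at 189 and 73.6 CPM in sperm 1 and 4 and at 4.90 and 7.70 in testes. Summed with Hist2h3c1 and Hist2h3c2, the other H3.2 genes of the chromosome 3 cluster, it gave 189, 150.0, 0 and 73.6 CPM in sperm 1 to 4 and 31.0 and 19.1 in testes. This sum was formed after the values were seen. It was above testes in 3 of 4 sperm samples and at 0 in sperm 3.

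H4 and H2B genes were sparse in sperm. The 10 H4 genes encode 1 protein between them. They summed to 0, 40.0, 0 and 18.4 CPM in sperm 1 to 4 and to 105 and 79.5 in testes. Every sperm sum was below both testes sums, an order that held in sperm 2 to 4 for 45.0% of all tested genes. The Wilson intervals of these sums reached up to 90.6, 103, 115 and 104 CPM in sperm 1 to 4. Those of testes reached down to 75.4 and 53.9, so each sperm interval overlapped both testes intervals. Such overlap does not test a difference. At the testes level 3.92, 9.25, 3.10 and 5.02 H4 counts would have been expected in sperm 1 to 4, where 0, 4, 0 and 1 were found. Hist1h4b was the highest of the H4 genes in testes. It stood at 10.1 CPM in sperm 2 alone and at 32.5 and 25.5 in testes. Its log2 fold change was -2.31 (SE 1.51 and an adjusted p of 0.253 by edgeR). The 10 H2B genes had no count in sperm 1, 2 and 3. In sperm 4 they had 4 counts, all assigned to Hist1h2be (73.6 CPM), a gene at 0 in testes. In testes the H2B genes summed to 59.0 and 35.0 CPM. None of the H2B genes had enough counts to be tested.

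Split by position, the 27 core histone genes of the chromosome 13 cluster summed to 0, 99.97, 0 and 202 CPM in sperm 1 to 4 and to 244 and 244 in testes. The 8 genes of the chromosome 3 cluster summed to 708, 610, 59.7 and 828 in sperm and to 459 and 476 in testes. The core genes of the first cluster were below testes in all sperm samples. With its linker genes, the whole chromosome 13 cluster (32 genes) summed to 23.6, 540, 686 and 460 CPM in sperm 1 to 4. In testes it summed to 446 and 415, so only sperm 1 lay below. The second cluster was above testes in all sperm samples but sperm 3. The summed dividing-cell markers were also lower in sperm than in testes, at the values given above, and their part in these sums was not tested.

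Per length, with FPKM rescaled to sum to 1000000 over NM_ genes, the highest histone levels in sperm 2 to 4 were Hist2h2aa1 at 1375 ± 1868, H1fx at 1141 ± 414, Hist1h1c at 845 ± 680 and Hist1h1e at 670 ± 271. Neighbours in this order did not differ beyond their spread. In testes the order began with Hist2h2aa2 at 889 ± 130, Hist2h2ab at 549 ± 122, Hist2h2ac at 529 ± 70.4, Hist3h2a at 435 ± 336 and H1fx at 430 ± 112. There, 3 H2A genes of the chromosome 3 cluster stood first, of which Hist2h2ab was at 0 in sperm.

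The number of histone genes with any count was 6, 20, 6 and 11 in sperm 1 to 4, and 43 and 48 in testes. Of all 14455 NM_ genes, 2025, 6733, 1552 and 3316 had a count in sperm 1 to 4, and 12250 and 11537 in testes. For histone genes the gap was narrower at equal depth, which was not computed for all genes. At the NM_ count of sperm 3, the smallest, 5.79, 14.4, 6 and 10.0 genes would be expected in sperm and 22.0 and 21.7 in testes. In all, 32 of the 56 genes were at 0 in all 4 sperm samples. The share of all NM_ genes in this state was not computed, so the number is not read as particular to histones. For 29 of these 32 histone genes the testes level lay under the value of 3 counts over sperm 2 to 4. The other 3 were Hist2h2ab, H3f3b and Hist1h1a. These 3 were also the tested histone genes at 0 in sperm 2 to 4, a state shared by 22.4% of all tested genes. Of the 21 tested histone genes 10 had every sperm 2 to 4 value below both testes values, against 45.0% of all tested genes.

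**Figure D4:**
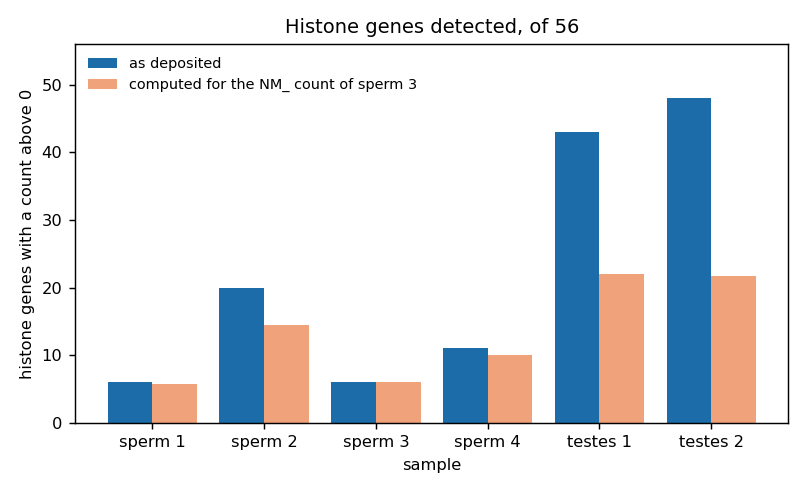
Bars give the number of the 56 histone genes with a count above 0 in each sample (vertical axis), as deposited and as computed for the NM_ count of sperm 3. At equal depth the sperm samples span 5.79 to 14.4 genes and the testes samples 22.0 and 21.7.

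The proteins that process, carry and deposit histones were read from a list of 34 genes, of which 33 were measured and 18 tested. None was called higher in sperm and 2 fell, against 3.54% and 3.65% of all tested genes. Of the 33 genes, 15 were at 0 in all sperm samples, and the share of all NM_ genes in this state was not computed. Of the 18 tested, 5 were at 0 in sperm 2 to 4, against 22.4% of all tested genes. Nasp, a chaperone of H3 and H4 and of linker histones, was at 0 in sperm and at 83.7 and 283 CPM in testes (edgeR adjusted p = 0.0215). Hjurp, the CENP-A chaperone, was at 0, 401, 0 and 60.4 CPM in sperm and at 1966 and 1220 in testes (log2 fold change -3.23, SE 0.70). Slbp, which binds the stem-loop of replication-dependent histone mRNA, was at 0 in sperm and at 55.8 and 63.6 in testes (edgeR adjusted p = 0.0746). Npat, the coactivator of replication-dependent histone genes, was at 0 in sperm and at 86.8 and 73.2 in testes. Chaf1a, the large subunit of the replication-coupled assembly factor CAF-1, was at 20.0 CPM in sperm 2 alone and at 155 and 188 in testes.

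Chaperones and remodellers of replacement histones were uneven. Hira, which deposits H3.3, was at 0, 140, 448 and 442 CPM in sperm 1 to 4 and at 226 and 251 in testes (log2 fold change 0.50, SE 0.95). Daxx, another H3.3 chaperone, was at 0, 80.0, 0 and 92.0 in sperm and at 40.3 and 89.1 in testes. Srcap, the remodeller that exchanges H2A for H2A.Z, was the highest of the list in sperm, at 2052, 3639, 1910 and 2779 in sperm and 1891 and 2040 in testes (log2 fold change 0.50, SE 0.45). None of these 3 passed the test. Ep400, another remodeller linked to H2A.Z, was at 10.0 CPM in sperm 2 alone and at 139 and 76.4 in testes (adjusted p of 0.0839 by edgeR). Atrx, the partner of Daxx, and Anp32e, an H2A.Z chaperone, were at 0 in all sperm samples and at most 9.55 CPM in testes. These genes were named after their values were seen.

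The proteins that replace histones were read from a second list, of which 7 of 8 genes were measured and 6 tested. None was called higher in sperm (3.54% of all tested genes) and 2 fell (3.65%), Prm1 and Tnp1. Prm1, a protamine, stood at 142, 20.0, 0 and 36.8 CPM in sperm and at 381 and 369 in testes (log2 fold change -4.13, SE 1.32). Tnp1, a transition protein, was at 20.0 in sperm 2 alone and at 304 and 274 in testes (log2 fold change -4.83, SE 1.53). Prm2, the second protamine, stood at 1062, 1480, 1462 and 2392 in sperm and 1441 and 700.0 in testes, with overlapping groups (log2 fold change 0.73, SE 0.53). Hils1, a linker-like protein of spermatids, was at 0 in sperm and at 74.4 and 41.4 in testes. In each sperm sample Prm2 was counted more often than any single histone gene.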

How the data were processed

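Total RNA of 4 sperm and 2 testes samples was sequenced after rRNA depletion, strand-specific and paired-end. The authors removed adaptors and poor reads and mapped the rest with SOAPaligner/SOAP2 per the study's methods; the submitters' processing notes name HISAT and mm10. The counting program is not given in the sources used here. For each transcript, the authors deposited an estimated count, its length and FPKM (fragments scaled by length and mapped fragments, by the authors). The members and lists were chosen with earlier results of these data known. Classes were set from gene names.

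Estimated counts of NM_ rows were summed per gene name, absent rows set to 0, and divided by the sample's NM_ total. Of the 56 histone genes, 32 had an estimated count that differed from a whole number by more than 0.005 in some sample, as when a read is divided between transcripts. Near-identical copies can share reads, so values of single H4, H3, H2B and H2A genes are uncertain. Fractional counts also occurred in linker genes, as for H1fx (55.08 in sperm 2), Hist1h1c (21.79 in testes 2) and Hist1h1d (6.21 in testes 2). For the test, sums were rounded and fitted with edgeR 4.0.16 (R 4.3.3; glmQLFit, glmQLFTest) on sperm 2, 3, 4 and testes 1, 2, with the NM_ total as library size and genes with a summed count of 10 or more. Calls needed a Benjamini-Hochberg adjusted p under 0.05 over all genes tested and a fold above 2. SE was derived from the F statistic. limma 3.58.1 on log2(FPKM + 1), DESeq2 1.42.0, TMM, other filters, all 4 sperm samples and leaving out each replicate were alternatives. The script was tested on simulated data. Genes were named by rule: every testis and replacement variant, and the 12 replication-dependent genes of highest mean; Hist1h1a and Hist1h1d were named after their values were seen. Sperm samples were pools of mice, and p-values measure the spread between these samples. The groups shared mice, which the test did not take into account, and which testes went with which sperm pool is not given. The number of counts sets the precision, with 55 to 191 histone counts in a sperm sample. Replicate numbers could pair sperm and testes only for 1 and 2.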

Additional observations from a re-analysis of the deposited data

Results flagged for a closer look

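In 9 of 31 tests over the 4 sperm samples, a histone gene had its counts in 1 sample and 0 in the other three. Chance flags about 1 in 20 groups of continuous values, but a gene whose sperm counts all lie in 1 sample always meets the criterion, so the 9 are not read as an excess. In sperm 2 these were H2afx at 10.0 CPM, H3f3a at 20.0, Hist1h1t at 30.0, Hist1h4b at 10.1, Hist2h2aa2 at 365, Hist2h2ac at 20.7 and Hist2h3c2 at 150.0. In sperm 4 they were H2afj at 18.4 and Hist1h2be at 73.6. Sperm 2 had the highest NM_ total of the sperm samples, and its part in these values was not tested.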

How the results depend on the processing

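The number of histone genes called higher in sperm was 0, and 1 with limma; leaving out a replicate gave 0 to 3. The number called lower was 0, and 1 with DESeq2, 3 with an FPKM filter, 2 with all 4 sperm samples and 5 with limma; leaving out a replicate gave 0 to 1. The sperm to testes ratio of all histone genes (1.05) was 0.883 when scaled to all rows, 0.914 by FPKM and 0.855 without H1fx, and that of replacement variants (1.31) was 0.501 without H1fx (leaving out the leading gene was an alternative chosen after seeing the data). The ratio of genes detected (0.271) was 0.465 at equal depth. Among all tested genes the median log2 fold change shifted by -0.65 under TMM and -1.03 under DESeq2, and calls higher in sperm went from 49.3% of calls (242 of them higher, 249 lower) to 20.4% and 18.0%.

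Signs turned for 6 named genes, in log2 fold change. H2afy2 gave -0.79 with TMM, -0.81 with DESeq2, -0.058 with all 4 sperm samples, -0.36 without sperm 3 (0.78 without sperm 2) and -0.088 with limma. Hist1h3a gave -0.56 with TMM, -0.86 with DESeq2, -0.13 with the library size of all rows, -0.32 with all 4 sperm samples, -0.45 without sperm 4 (0.55 without sperm 3), -0.11 without testes 1 and -1.11 with limma. Hist2h2aa1 gave -0.33 without sperm 4 (2.46 without sperm 2), and Hist2h2aa2 0.020 without sperm 3 and 0.016 without sperm 4 (-8.14 without sperm 2, a fit with 0 sperm counts). With a replicate block over all 4 sperm samples, H2afy2 gave -2.16, Hist1h3a -1.11, Hist1h1c -0.13 and Hist3h2a 0.24, and no histone gene was called higher (0) or lower (0). The replicate numbers were not shown to pair samples (r = -0.019 and -0.036 over 6949 genes). H1fx and Hist1h1e stayed positive in every alternative, though both had been singled out for their values in the same samples. The cause of these changes was not tested. Depth limits the low genes most.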
